A study of Mus musculus with 3 samples.

Results

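Lyz2 and Lyz1, the pair of adjacent mouse genes that encode the conventional lysozymes, are described here in 3 libraries of nuclear RNA from macrophages. They were taken by symbol, and both were found, 2 of 55536 annotated genes. All 3 libraries belonged to 1 group: total RNA, with ribosomal RNA removed, of the nuclear fraction (also named nucleoplasmic in the labels) of macrophages grown from the bone marrow of C57BL/6J mice, primary cells treated with Lipid A at 100 ng/ml for 15 min. Lipid A is the part of bacterial lipopolysaccharide that activates Toll-like receptor 4. No untreated library was analysed here, so no value below is a response to Lipid A. The libraries are separate biosamples with 1 donor entry, so their spread and every p-value measure differences between these samples that may be technical. Sex and age were not collected.

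Lysozyme is a small secreted enzyme that cuts the sugar backbone of peptidoglycan, the wall polymer of bacteria. Most mammals make it from a single gene, whereas the mouse has a tandem pair. Lyz2, or lysozyme M, is the form of macrophages and neutrophils, and its locus drives Cre recombinase in a widely used myeloid mouse line. Lyz1, or lysozyme P, is the form of Paneth cells, the secretory cells at the base of small intestinal crypts. Peptidoglycan fragments freed by the enzyme are read inside the cell by the receptors Nod1 and Nod2.

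The genes lie in the same direction on the minus strand of mouse chromosome 10 (GRCm38, GENCODE M21). Lyz2 (ENSMUSG00000069516.8) spans 117277331 to 117282321 and Lyz1 (ENSMUSG00000069515.6) spans 117287797 to 117292868, with 5475 bases between them. Each has 4 exons and 1 annotated transcript, of 1316 nucleotides for Lyz2 and 1263 for Lyz1, so no split between isoforms arises. The first 120 bases of each coding sequence, from the ATG, are shown because the separation of the genes in a count table rests on such differences. Capitals mark the 11 bases that differ between the genes in this stretch.
Lyz2: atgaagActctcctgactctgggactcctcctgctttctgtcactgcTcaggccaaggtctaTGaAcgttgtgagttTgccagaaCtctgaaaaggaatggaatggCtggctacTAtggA
Lyz1: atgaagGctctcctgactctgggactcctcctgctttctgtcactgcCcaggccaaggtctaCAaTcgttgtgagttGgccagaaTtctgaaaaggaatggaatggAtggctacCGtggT

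The transcripts were 95.96% identical over 1262 aligned bases, with 51 substitutions. The coding sequences, 447 nucleotides each, differed at 22 bases, and the 3′ untranslated regions differed at 29. The longest stretch without a difference ran for 118 bases and lay in the coding sequence. The encoded proteins, 148 residues each with the signal peptide, differed at 12 residues and were 91.89% identical. A read from such a stretch fits both genes, so the amount of shared sequence at a given read length limits what the letters of a single read can separate. Read pairs were not considered. Of the 31-base windows of the Lyz1 transcript, 34.2% occurred letter for letter in Lyz2, and 2.06% of the 100-base windows did. Of the windows of Lyz2, 32.8% of 31 bases and 1.97% of 100 bases occurred in Lyz1. None of these 31-base windows occurred in an annotated transcript of any other gene. The read length is not given in the sources used here.

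**Figure D1:**
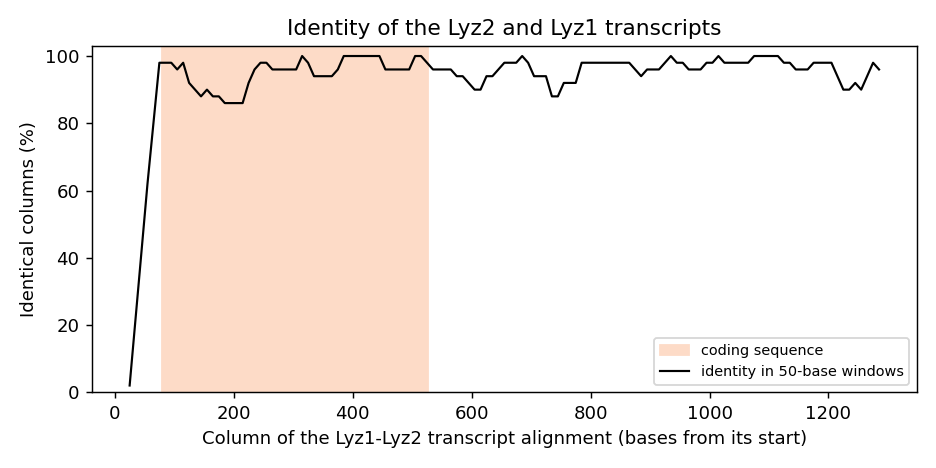
Identity of the aligned Lyz2 and Lyz1 transcripts in sliding windows of 50 alignment columns (vertical axis, percent). The horizontal axis gives the alignment columns from the 5′ end, and shading marks the coding sequence. Lyz2 starts earlier in the annotation, so the first windows fall for lack of a Lyz1 base to pair with, and the windows after them stay at or above 86%.

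Upstream of the genes the likeness was lower. The 300-base promoter windows, from 250 bases before to 50 bases after the RefSeq start, matched at 249 of 298 paired bases, or 83.56%. The stretches below, from RefSeq (GRCm38.p6), cover the 200 bases that lie upstream of both annotated transcripts within those windows, at chr10:117282323-117282522 for Lyz2 and chr10:117292919-117293118 for Lyz1, both read on the minus strand. They are shown because the pair differs so widely in level. Capitals mark the bases that differ from the aligned base of the other window or have no partner there, 50 in each.
Lyz2: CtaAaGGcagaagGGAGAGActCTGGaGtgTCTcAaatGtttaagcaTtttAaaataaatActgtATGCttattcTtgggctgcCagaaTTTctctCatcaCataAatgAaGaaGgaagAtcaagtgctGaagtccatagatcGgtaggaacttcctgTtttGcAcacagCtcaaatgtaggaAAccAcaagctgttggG
Lyz1: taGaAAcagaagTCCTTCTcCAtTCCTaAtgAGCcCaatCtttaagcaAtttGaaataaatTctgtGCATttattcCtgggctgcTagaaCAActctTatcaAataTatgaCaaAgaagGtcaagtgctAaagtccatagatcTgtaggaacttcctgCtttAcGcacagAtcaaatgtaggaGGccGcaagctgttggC

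The letters of 4 short motifs were searched on both strands of the 300-base windows. The PU-box letters GAGGAA, bound by the myeloid factor Spi1, were in neither window and in 28.28% of 32851 RefSeq promoter windows of the same length. The Ets letters CCGGAA, which share the core GGAA with the PU-box, were in neither window and in 14.9% of promoters, and the TATA box letters TATAAA were in neither and in 13.62%. The C/EBP letters TTGCNNAA were absent from the Lyz2 window and occurred 1 time in that of Lyz1, within the printed stretch, and 10.8% of promoters held them. These are matches of letters and say nothing of binding.

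Lyz2 was among the most abundant mRNAs of the nuclear fraction, and Lyz1 was low, near 1 TPM. Levels are given in TPM, a value per transcript length that sums to the same total in each library. Lyz2 had 1593, 2346 and 1995 TPM in replicates 1, 2 and 3, a mean of 1978 ± 377 (SD, n = 3). Lyz1 had 0.61, 1.29 and 1.07 TPM in the same libraries, a mean of 0.990 ± 0.347 (SD, n = 3). No Lyz1 value came near a Lyz2 value in any library. Because these are bulk samples, fewer cells that express a gene and less RNA of it per cell cannot be told apart.

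The counts behind these values differ widely in precision. Lyz2 had 43965, 53526 and 72618 expected counts, reads assigned by a model that divides those fitting several genes. Lyz1 had 16, 28.0 and 37.2 expected counts, above the 3 counts that a count of 0 would allow. The 95% credibility bounds deposited with the posterior mean TPM, a companion estimate with means of 1521, 2228 and 1930 TPM for Lyz2, were 1506 to 1536, 2208 to 2248 and 1916 to 1945, all below the deposited TPM. For Lyz1 the posterior means were 0.62, 1.27 and 1.07 TPM, with bounds of 0.339 to 0.916, 0.823 to 1.74 and 0.735 to 1.40. The bounds of Lyz2 overlap between none of the 3 libraries, while those of Lyz1 all overlap. The share of all genes whose bounds do not overlap was not computed, so this is not given as a trait of either gene. Such bounds cover counting and assignment error within a library only, which is small at the counts of Lyz2.

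**Figure D2:**
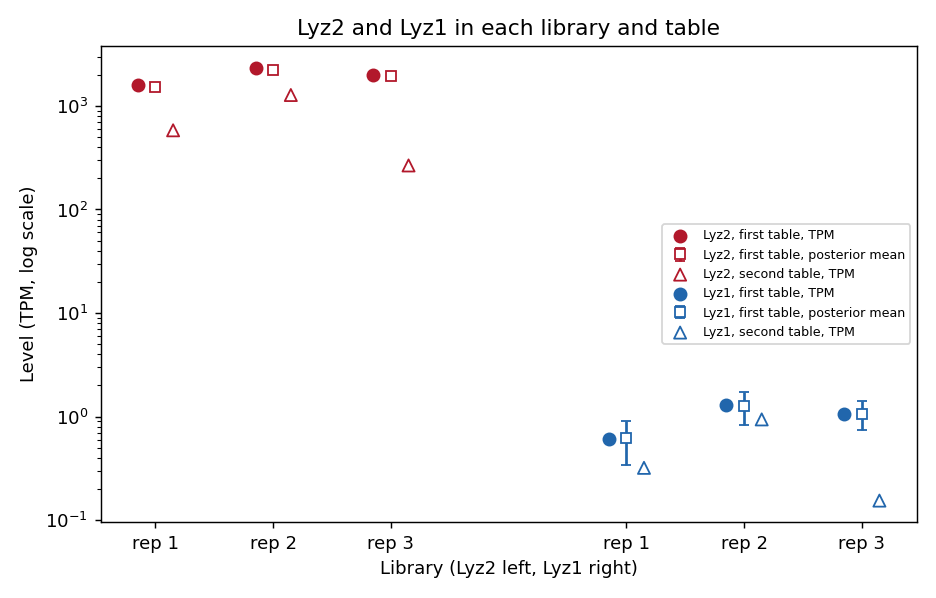
TPM of Lyz2 and Lyz1 in each of the 3 libraries on a log axis, from the first kind of table as deposited, with posterior means and their 95% bounds, and from the second table. In the first table Lyz2 sits between 1593 and 2346 TPM and Lyz1 between 0.61 and 1.29 TPM.

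Lyz2 exceeded Lyz1 by 2611-fold, 1819-fold and 1865-fold in TPM in replicates 1, 2 and 3. On the log2(TPM + 0.1) scale the difference was 10.86 ± 0.23 (SD, n = 3), or 1862-fold. With Lyz1 near 1 TPM the fold depended on the pseudocount, at 993-fold with 1 TPM added and 2069-fold with none. In the second table it was 1212-fold with 0.1 TPM added. With none added there, it was 1818-fold, 1357-fold and 1724-fold in replicates 1, 2 and 3. The difference had the same sign in 3 of 3 libraries, and an exact permutation test that flips signs, two-sided, gave p = 0.25, the smallest that 3 libraries allow, with an adjusted p of 0.417 over the 10 tests made. Over replicates 1, 2 and 3 Lyz1 took 0.0364%, 0.0523% and 0.0509% of the pair's expected counts. Exact Clopper-Pearson 95% intervals were 0.0208 to 0.0591%, 0.0347 to 0.0756% and 0.0359 to 0.0702%, and they overlap, so no difference in the share was detectable at this depth. The mean share was 0.0466 ± 0.00891% (SD, n = 3). Whether these few counts are reads of Lyz1 or misassigned reads of its near-identical neighbour was not tested, so the level of Lyz1 is uncertain.

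Set against all genes, Lyz2 ranked 14, 12 and 10 in TPM among 22028 protein-coding genes in replicates 1, 2 and 3. Among those encoded in the nucleus it ranked 5, 3 and 3, since several mRNAs of the mitochondrial genome stood above it. Those 13 mRNAs made up 6.62%, 8.31% and 3.54% of annotated counts, and their place in a nuclear fraction is given here as measured. Lyz2 itself took 0.237%, 0.309% and 0.347% of annotated counts. Lyz1 ranked 10974, 9941 and 9816, below the median of 6.88 TPM over the 11960 measured protein-coding genes. A gene was called measured at a mean of at least 10 expected counts. By its mean, 11707 protein-coding genes lay below Lyz1, and 6814 were at 0 in every library.

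**Figure D3:**
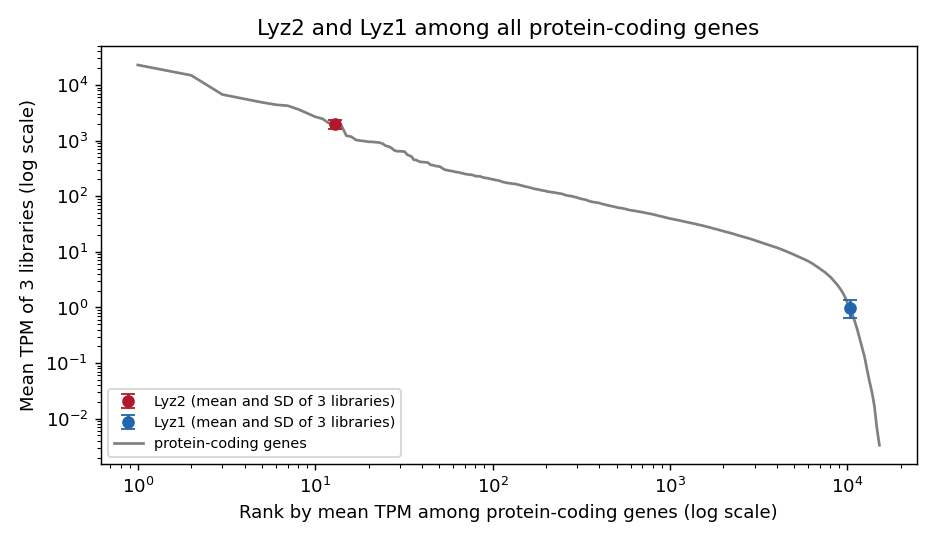
Mean TPM over 3 libraries (log axis) of protein-coding genes ordered from highest to lowest, with Lyz2 and Lyz1 marked. Lyz2 lies at rank 13 and Lyz1 among 8 genes tied at ranks 10314 to 10321.

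The genes next to Lyz2 in level were lysosomal or mitochondrial. They were chosen by the same TPM values that the tests below compare, so the choice set the side of each mean. The p-values of these tests therefore support no difference in level. Next above Lyz2 were mt-Nd2, a mitochondrial subunit of respiratory complex I, Gpnmb, a glycoprotein of macrophage lysosomes, and Ctsd, the lysosomal protease cathepsin D. The means were 1978 TPM for Lyz2, 2681 ± 1854 for mt-Nd2, 2466 ± 341 for Gpnmb and 2040 ± 220 for Ctsd (SD, n = 3). Next below were Ctsb, the protease cathepsin B, at 1913 ± 353 TPM, and the mitochondrial mRNAs mt-Nd3 at 1224 ± 459 and mt-Co3 at 1174 ± 184 TPM. Gpnmb had 2200, 2850 and 2347 TPM and was above Lyz2 in each library, a log2 difference of -0.33 ± 0.12 for Lyz2 over Gpnmb (exact permutation p = 0.25, adjusted 0.417). Lyz2 was above mt-Nd3 and mt-Co3 by 0.74 and 0.75 on the log2 scale, in 3 of 3 libraries each (exact permutation p = 0.25, adjusted 0.417). Ctsd, Ctsb and mt-Nd2 stood above Lyz2 in some libraries and below it in others, with log2 differences of -0.06, 0.05 and -0.17 and exact permutation p of 1, 0.75 and 1, so the order of Lyz2 among them did not exceed their spread.

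Lyz1 shared its mean of 0.99 TPM with other protein-coding genes, 8 in all with Lyz1. Its nearest neighbours in the ordered table, at the same mean, were Rxfp4, Mrpl35, Cdr2, Serpinb6b, 9930012K11Rik and Tst. Mrpl35 encodes a mitochondrial ribosomal protein and Tst a mitochondrial sulfur transferase. Ties put these genes in no order.

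The genes near the pair on the chromosome were below Lyz2 in level, as were nearly all protein-coding genes, with Lyz2 at rank 13 of 22028 by its mean. Of all 55536 annotated genes 15876 were measured. Within 250 kb of the pair lie 15 other annotated genes, 6 of them protein-coding, and 4 were measured. That is near the share of all genes and says little of the locus. Cpsf6, a subunit of an mRNA 3′ end processing complex, was the highest of these at 44.5, 43.8 and 26.1 TPM, a mean of 38.1 ± 10.4 (SD, n = 3), and Lyz2 exceeded it 51.9-fold by the means. Cct2, a chaperonin subunit, averaged 21.3 ± 7.43 TPM, Frs2, an adaptor of growth factor receptors, 12.1 ± 3.97, and Yeats4, a reader of histone acylation, 6.04 ± 0.881. All 4 were above Lyz1 in level and below Lyz2. The other 2 protein-coding genes, Lrrc10 and 9530003J23Rik, had at most 1 count in any library. Gm40770 had 6, 2 and 4 counts, and 10 of the 15 genes had no more than 3 counts in every library. The share of all genes with so few counts was not computed, so this is not given as a trait of the locus.

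The rest of the lysozyme family was nearly silent, beside 6814 of all 22028 protein-coding genes at 0 in every library. Of 8 other members, the testis-expressed Lyzl1, Lyzl6, Spaca3 and Spaca5, the milk protein Lalba and the goose-type lysozymes Lyg1 and Lyg2 were listed at 0 in all 3 libraries of the first table, and the second gave Spaca5 0, 1 and 1 counts. The remaining member, Lyzl4, had 4.45, 1.57 and 1.58 TPM from 78, 23 and 37 expected counts, so it was high in replicate 1, and its mean of 2.53 ± 1.66 (SD, n = 3) was above that of Lyz1.

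The labelled cell type was checked against its markers, and Lyz2 stood in the upper end of them. All 24 macrophage identity genes were measured, all had a mean of at least 10 TPM, and 16 had at least 100 TPM. Of all 22028 protein-coding genes 11960 were measured, and by mean TPM rank 4465 stood at 10.4 TPM and rank 280 at 100 TPM. Beside the 1978 TPM of Lyz2, the list's median was 180 ± 31 TPM (SD, n = 3), and Ctsd alone averaged above Lyz2. After Ctsd and Ctsb the highest was Apoe, the lipid carrier apolipoprotein E, at 880 ± 210 TPM, and the lowest were Cebpa at 14.2 ± 1.49 and Aif1 at 14.4 ± 1.77 TPM. Lyz2 exceeded the median of the list by 3.46 ± 0.38 on the log2(TPM + 0.1) scale, or 11.0-fold, in 3 of 3 libraries (exact permutation p = 0.25, adjusted 0.417). Most genes of this list stood far below Lyz2, and Lyz1 was below all of them.

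Lyz2 is also made by neutrophils and Lyz1 by Paneth cells, so markers of both are given beside these levels. Over all protein-coding genes 11960 of 22028 were measured, against 3 of 13 neutrophil markers. None of these markers reached 10 TPM, with a list median of 0.0733 ± 0.0208 TPM (SD, n = 3). Their summed level was 15.3, 15.3 and 15.0 CPM (counts scaled to library total), against 2374, 3086 and 3467 CPM of Lyz2. The collagenase Mmp8 led them at 3.80 ± 0.438 TPM, followed by the granule protein Ngp at 1.03 and the alarmin subunit S100a9 at 0.71 TPM, whereas Ly6g and Retnlg were listed at 0 in the first table, and Retnlg had 2, 0 and 1 counts in the second. The second table, made by another method from the same libraries, gave summed levels of 22.6, 24.2 and 17.7 CPM, and it put 145, 219 and 128 counts on Cxcr2, where the first table had 1, 1 and 3. All 6 Paneth cell markers, namely Defa17, Defa24, Defa30, Itln1, Ang4 and Mmp7, were at 0 in the 3 libraries in both tables.

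The transcription factors known to act on lysozyme genes or the myeloid lineage were mostly present at moderate levels. Of 8 such genes 7 were measured and 5 had a mean of at least 10 TPM, with a list median of 20.1 ± 0.327 TPM (SD, n = 3). Among all 22028 protein-coding genes 11960 were measured, and rank 4465 by mean TPM stood at 10.4 TPM. Runx1 averaged 78.9 ± 19.5 TPM, Irf8 47.3 ± 15.4, Cebpb 30.4 ± 7.77, Spi1 26.3 ± 0.821 and Cebpa 14.2 ± 1.49. The subunits of the GA-binding protein stood lower, Gabpb1 at 8.86 ± 2.38 and Gabpa at 7.2 ± 1.58 TPM. Cebpe, a factor of granulocyte maturation, had 5, 0 and 1 expected counts. None reached the level of Lyz2, and all but Cebpe were above Lyz1.

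Genes of peptidoglycan sensing, the reading of lysozyme's products, were lower than Lyz2 and mostly above Lyz1. Of 17 genes of peptidoglycan sensing 13 were measured, 12 averaged above Lyz1, 7 had at least 10 TPM and 1 had at least 100 TPM, with a list median of 4.16 ± 0.556 TPM (SD, n = 3). Slc15a3, a transporter of bacterial dipeptides out of endolysosomes, led at 111 ± 17.0 TPM, followed by Nagk, a kinase of N-acetylglucosamine, at 53.4 ± 9.27 and the inflammasome sensor Nlrp1b at 38.7 ± 10.3 TPM. Nod2, the receptor of muramyl dipeptide, averaged 4.16 TPM, and the peptidoglycan recognition proteins Pglyrp3 and Pglyrp4 were listed at 0. Of 15 other antibacterial genes 9 were measured and 8 averaged above Lyz1. Of the 15, 5 had at least 10 TPM and 2 at least 100 TPM, with a median of 2.26 ± 0.301 TPM. Among all 22028 protein-coding genes 11960 were measured and 11707 averaged below Lyz1, and rank 4465 by mean TPM stood at 10.4 TPM. The antibacterial genes measured and above Lyz1 were thus near the shares of all genes, and say little of the list. Mpeg1, the pore-forming perforin-2 of macrophages, led at 644 ± 173 TPM, followed by Cyba, a subunit of the phagocyte oxidase, at 120 ± 24.8 and the metal transporter Slc11a1 at 91.4 ± 11.6 TPM. Bpi, a granule protein that binds lipopolysaccharide, and the hormone gene Hamp were at 0 in the first table, and the second gave Hamp 0, 2 and 1 counts.

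**Figure D4:**
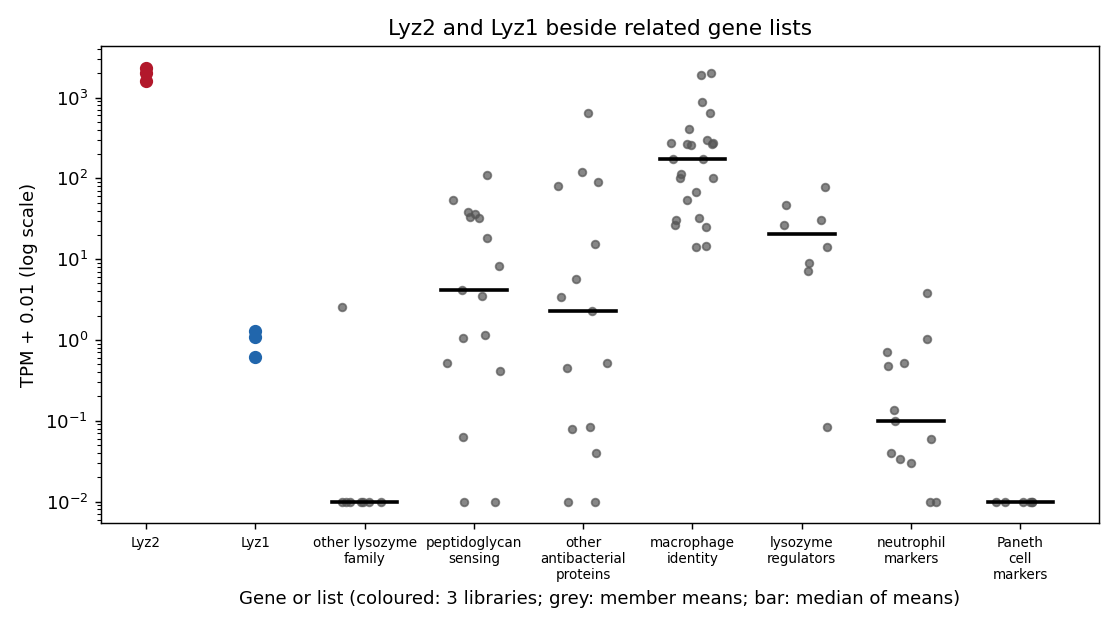
Mean TPM over 3 libraries (log axis, TPM + 0.01) of each list gene, by gene list, shown beside the levels of Lyz2 and Lyz1. Of all list genes shown, Ctsd alone lies above the mean of Lyz2, and all Paneth cell markers lie at 0 TPM.

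The order of the libraries depended on the unit for both genes. After scaling by TMM, a normalisation that matches the bulk of genes between libraries, Lyz2 had 2226, 3032 and 3764 CPM in replicates 1, 2 and 3. Lyz1 had 0.810, 1.59 and 1.93 CPM on the same scale. Replicate 3 was highest and replicate 1 lowest for both, whereas in TPM replicate 2 was highest for both. Replicate 1 was lowest under both units. With TPM taken over protein-coding genes only, replicate 3 was again highest for both genes. Lyz2 then had 5782, 6600 and 9352 TPM in replicates 1, 2 and 3, and Lyz1 had 2.21, 3.63 and 5.02 TPM. The libraries were made from 1 µg (replicates 1 and 3) or 500 ng of RNA (replicate 2), and whether that difference bears on the levels was not tested.

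The highest library exceeded the lowest 1.69-fold for Lyz2 in CPM with TMM, and 53.2% of 15876 measured genes reached 1.5-fold, with a median of 1.54-fold. Lyz2 thus lay above the median of all measured genes, which were not matched to it in counts. Genes at the counts of Lyz2 were not compared. Scaled by library total alone the spread of Lyz2 was 1.46-fold, and the share over all genes was not computed on that scale. Lyz1 reached 2.38-fold, a log2 spread of 1.25 with a 95% counting error of ± 0.85. That error holds for libraries fixed in advance, whereas these were picked as the highest and lowest, so it cannot tell the spread from counting error. The 3265 genes with a mean count within 2-fold of that of Lyz1 had a median of 1.97-fold. Without replicate 1 the spread was 1.24-fold for Lyz2 and 1.22-fold for Lyz1, and without replicate 3 it was 1.36-fold and 1.96-fold.

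The second transcript table gave Lyz2 48151, 73808 and 82493 estimated counts and Lyz1 25.2, 51.7 and 45.6. Lyz2 had 1.10, 1.38 and 1.14 times its counts of the first table, against 1.37, 1.75 and 1.46 times over all genes. In CPM Lyz2 was accordingly lower in the second table than in the first, 1901, 2435 and 2692 against 2374, 3086 and 3467, a log2 ratio of -0.34 ± 0.02 (SD, n = 3), or 0.789-fold. The ratio was below 1 in 3 of 3 libraries (exact permutation p = 0.25, adjusted 0.417). Lyz1 had 0.997, 1.71 and 1.49 CPM in the second table against 0.864, 1.61 and 1.78 in the first, a log2 ratio of 0.01 ± 0.24 (exact permutation p = 1). Of 15876 genes 20.1% differed at least 1.5-fold between tables, and neither Lyz2 nor Lyz1 did.

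TPM of the second table stood lower and spread more. Lyz2 had 582, 1275 and 266 TPM there, a mean of 708 ± 516 (SD, n = 3), and Lyz1 had 0.320, 0.940 and 0.154 TPM. Replicate 3, the highest in CPM, was thus the lowest in this unit for both genes. Transcripts under 300 nucleotides took 73.9%, 51.5% and 90.6% of all TPM in the second table, against 30.3%, 29.2% and 30.3% for genes of that length in the first. With TPM taken over protein-coding genes only, Lyz2 averaged 5213 TPM in the second table and 7245 TPM in the first, so the tables stood closer on that scale. The ratio of Lyz2 to Lyz1 within a library does not depend on this scale, and it was 1818, 1357 and 1724 in the second table's TPM.

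**Figure D5:**
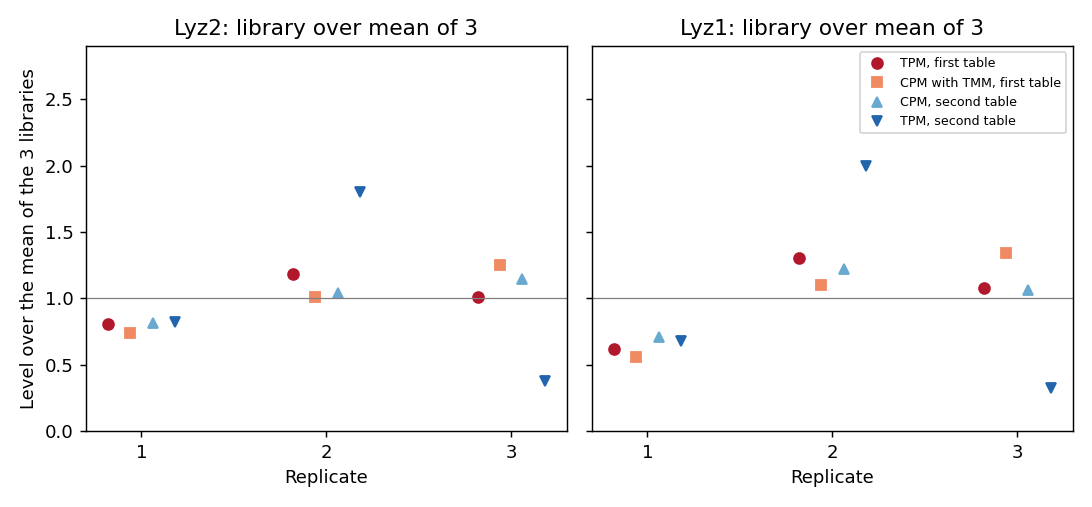
Level of Lyz2 (left) and Lyz1 (right) in each library divided by the gene's mean over the 3 libraries, in 4 units: TPM and CPM with TMM of the first table, CPM and TPM of the second. Replicate 1 lies below the mean in all 4 units, and replicate 3 lies above it except in the second table's TPM.

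Genes whose CPM moved across the libraries most like Lyz2 were sought among 9006 protein-coding genes with a mean of at least 100 expected counts. Likeness was the Euclidean distance between log2 CPM values after TMM, centred on each gene's mean over the 3 libraries. The nearest were Tmco6 at 0.00257, Gab1 at 0.00773, Gtpbp2 at 0.00979, Adamtsl4 at 0.0174 and Lamp1 at 0.0179, beside a median distance of 0.594 over all genes compared. Lamp1, a membrane protein of lysosomes, had 628, 851 and 1075 CPM. With 3 libraries such a ranking has little resolution, and 129 genes lay within a distance of 0.1. Lyz1, with a mean of 27.1 expected counts, was too low to be ranked.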

How the data were processed

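Nuclear RNA of 3 libraries was analysed from gene tables and 2 kinds of transcript table. The first kind, laid out as RSEM output, holds deposited expected counts and deposited TPM values, per the file headers. The posterior mean TPM and its 95% credibility bounds, scores on a TPM scale, were deposited by the authors and entered no test. The second kind, laid out as kallisto output, holds deposited estimated counts and their TPM. Build mm10 and annotation GENCODE M21 are named in each library's notes, and program versions were not given in the sources used.

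Depth over annotated genes was 18516063, 17345644 and 20947006 expected counts (replicates 1 to 3), so a floor of 3 counts is 0.162, 0.173 and 0.143 CPM. Rows that name no gene (26345, with 1.24%, 0.372% and 0.0641% of counts) were left out. Intervals and floors cover counting error only. CPM was computed here, with TMM factors from edgeR 4.0.16 (R 4.3.3) over genes with a mean of at least 10 counts. DESeq2 1.42.0 size factors were an alternative. No count test was run, since there is 1 group. Differences within a library used log2(TPM + 0.1) or log2 CPM, with two-sided exact sign-flip permutation tests over 3 libraries (scipy 1.17.1, smallest p 0.25) and Benjamini-Hochberg adjustment over 10 tests. The 10 tests include those of Lyz2 against its neighbours in level, which were chosen by the same TPM values. Transcripts were aligned with Biopython 1.88. The TMM scaling was tested on simulated counts with known changes, and the other steps were not.

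The members and gene lists were chosen with earlier results of these data known. Named genes were the lysozyme family, the 3 highest and 2 lowest of each other list (all members of a list of at most 8), the 3 protein-coding genes above and below each member in mean TPM, annotated genes within 250 kb, and the 5 most like Lyz2. Cxcr2 and Nod2 were chosen after their values were seen. The alternatives were other scalings, pseudocounts and filters, the posterior mean TPM, the second table, TPM over protein-coding genes and leaving out each replicate.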

Additional observations from a re-analysis of the deposited data

How the results depend on the processing

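Lyz2 exceeded Lyz1 and the median of the macrophage identity genes under every alternative run, with log2 differences of 9.96 to 11.01 and 3.28 to 3.67. The mean TPM of Lyz2 was 708 in the second table, 7245 over protein-coding genes only and 5213 with both, and that of Lyz1 was 0.471, 3.62 and 3.22. The mean share of Lyz1 in the pair was 0.0592% in the second table. The log2 spread of Lyz2 between libraries was 0.76 with TMM, 0.55 by library total, 0.92 in the second table, 0.56 with TPM as deposited and 0.69 with TPM over protein-coding genes. Leaving out each replicate gave 0.31 to 0.76 for Lyz2 and 0.28 to 1.25 for Lyz1. The log2 ratio of the second table to the first for Lyz1, 0.01 in CPM, became -1.39 with TPM and -0.13 with TPM over protein-coding genes, and -0.088 to 0.14 with a replicate left out. That of Lyz2, -0.34 in CPM, was -1.75 and -0.48 on those TPM scales. The cause was not tested. The levels in the second table over protein-coding genes, the spread with TPM as deposited, and the spread and the table ratio with TPM over protein-coding genes were alternatives chosen after seeing the data. The tests compared values within a library, and no comparison between groups was possible because all libraries belong to 1 group. Depth limits Lyz1, at 16 to 37.2 counts, and not Lyz2.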
